A study of Mus musculus with 120 samples.

Results

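Wnt ligands are lipid-modified proteins that bind Frizzled receptors and LRP co-receptors, and through them stabilise beta-catenin, which acts in the nucleus with TCF and LEF factors. Secreted antagonists act outside the cell. The secreted Frizzled-related proteins (*Sfrp1*, *Sfrp2*, *Sfrp4*, *Sfrp5* and *Frzb*, also called Sfrp3) carry a cysteine-rich domain like that of Frizzled and bind Wnt proteins, *Wif1* binds Wnt proteins through a domain of its own, and *Dkk2* binds the LRP co-receptors. *Dkk3* is a divergent family member that is not a typical LRP ligand. In skin and other connective tissue several of these genes are made by fibroblasts, which is where an implanted material meets its host.

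The genes described here are these 8 secreted antagonists, found by gene symbol in both deposited count tables, among 55487 Ensembl genes that the tables share. They were selected on measured values of these samples, their CPM over progressor times before onset in particular. Progressor values over time, and their comparison with nonprogressors over time, are therefore given as a description with no test.

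The samples were subcutaneous scaffold biopsies, called immunological niches (INs), from mice of the strain NOD/ShiLtJ, in which autoimmune diabetes develops in a part of the animals, and from NOR/LtJ, a related strain that is resistant. Bulk RNA sequencing covered 120 samples, with 58 from 10 NOD progressors, which became hyperglycemic, 39 from NOD nonprogressors and 23 from 5 NOR mice. Progressors were sampled at 6 weeks of age, at 7, 5, 3 and 1 weeks before onset (−7 to −1) and at onset. The INs of NOR mice and 33 of those of nonprogressors came from ages of 6, 10, 14, 18 and 22 weeks, and another 6 nonprogressor INs are labelled by days post implant. Removed INs were replaced by new ones at the same sites, so age, repeated surgery and time in place cannot be told apart. The labels give no age for progressor samples after 6 weeks.

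Batch 1 held 74 samples and batch 2 held 46. All NOR samples were in batch 1, and all 8 −7 samples in batch 2. By their labels 4 of these 8 came from progressor mice 1 to 4, whose other INs were all in batch 1, and the others from mice 6, 7, 9 and 10 of batch 2. Nonprogressors of batch 2 were sampled at 6 and 14 weeks. Total estimated counts ran from 4722396 to 56185434 in batch 1 and from 29029239 to 43880986 in batch 2. The 18-week sample of NOR mouse 5 had 85.7% of its counts on a single ribosomal RNA gene. The tests between NOR ages of *Sfrp1* and *Sfrp5* are also given without it. Other tests of members that use 18-week NOR INs are given with it. Levels are CPM, a gene's count as a share of all counts scaled to a common total, on library sizes scaled by the TMM method. An IN is a mixture of cells, and in bulk RNA fewer cells of a type and less RNA per cell cannot be told apart.

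All members lie on separate autosomal loci of GRCm38 and are protein coding. *Sfrp1* spans chromosome 8 from 23411502 to 23449632 on the plus strand, *Sfrp2* chromosome 3 from 83766321 to 83774316 (plus), *Sfrp4* chromosome 13 from 19623104 to 19632994 (plus) and *Sfrp5* chromosome 19 from 42197971 to 42202252 (minus). *Frzb* spans chromosome 2 from 80411970 to 80447625 (minus), *Dkk2* chromosome 3 from 132085292 to 132180304 (plus), *Dkk3* chromosome 7 from 112116017 to 112159057 (minus) and *Wif1* chromosome 10 from 121033960 to 121100650 (plus). The antisense gene *Gm26771* overlaps *Sfrp2*, so reads from the pair could be exchanged in the counting.

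RefSeq promoter windows (250 bases before to 50 after the gene start, GRCm38.p6) were matched for 5 members, *Sfrp2*, *Sfrp5*, *Frzb*, *Dkk2* and *Wif1*. Those of *Sfrp2*, *Dkk2* and *Sfrp5* are shown, because these genes follow the most distinct courses below. Sequences are 5′ to 3′ on the gene's strand, with capitals marking the letters TATAAA and GGGCGG, searched on both strands.

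Sfrp2, chr3:83766071-83766370 (+): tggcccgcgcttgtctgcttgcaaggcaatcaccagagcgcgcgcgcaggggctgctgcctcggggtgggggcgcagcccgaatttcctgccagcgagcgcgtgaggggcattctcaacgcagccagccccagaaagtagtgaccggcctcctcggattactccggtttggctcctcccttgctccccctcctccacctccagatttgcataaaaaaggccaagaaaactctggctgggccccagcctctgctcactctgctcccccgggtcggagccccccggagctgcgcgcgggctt
Dkk2, chr3:132085042-132085341 (+): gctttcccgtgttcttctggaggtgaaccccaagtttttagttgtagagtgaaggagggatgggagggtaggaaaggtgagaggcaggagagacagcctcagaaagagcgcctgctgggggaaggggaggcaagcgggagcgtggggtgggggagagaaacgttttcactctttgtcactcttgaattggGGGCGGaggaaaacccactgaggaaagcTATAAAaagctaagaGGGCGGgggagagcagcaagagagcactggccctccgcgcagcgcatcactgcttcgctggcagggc
Sfrp5, chr19:42202203-42202502 (−): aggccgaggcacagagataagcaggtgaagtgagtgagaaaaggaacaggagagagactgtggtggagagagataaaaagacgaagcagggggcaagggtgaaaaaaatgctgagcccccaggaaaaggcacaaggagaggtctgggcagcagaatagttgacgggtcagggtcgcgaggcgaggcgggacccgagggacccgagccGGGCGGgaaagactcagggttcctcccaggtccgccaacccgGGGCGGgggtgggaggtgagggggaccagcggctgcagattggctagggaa

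TATAAA began 32 bases before the *Dkk2* start, and 13.6% of 32817 RefSeq promoter windows of this length hold these letters somewhere. GGGCGG was present 2 times in *Dkk2* and 2 times in *Sfrp5*, and 35.6% of all windows hold it. Neither pattern was in the *Sfrp2* window, where GC content was 66%, against 57.7% in *Dkk2* and 61.3% in *Sfrp5*. TCF and LEF factors can bind CTTTGAT and its variants with other last letters, of which CTTTGTT was searched, with CTTTGAA and also with CTTTGTA. None of the 4 patterns was in any of the 5 matched windows on either strand, and 16.9% of all windows hold at least 1 of them. These letters describe the windows and nothing about binding.

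On a scale of CPM per kilobase of exon, *Sfrp2* had the highest level of all members in 120 of 120 samples, with a median of 81.8 (8.31 to 259). *Sfrp1* (median 11.0), *Dkk3* (10.9) and *Sfrp4* (10.7) came next and were not separated. *Sfrp1* exceeded *Dkk3* in 66 of 120 samples, and *Dkk3* exceeded *Sfrp4* in 61 of 120. *Sfrp5* (median 3.44) ranged from 0 to 55.8, and *Dkk2* (0.779) lay below it in 103 of 120 samples. *Frzb* (0.120) and *Wif1* (0.0731) were close to the floor, and *Wif1* had no count in 18 samples. The order of the last 2 was mixed, with *Frzb* above *Wif1* in 76 of 120 samples.

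**Figure D1:**
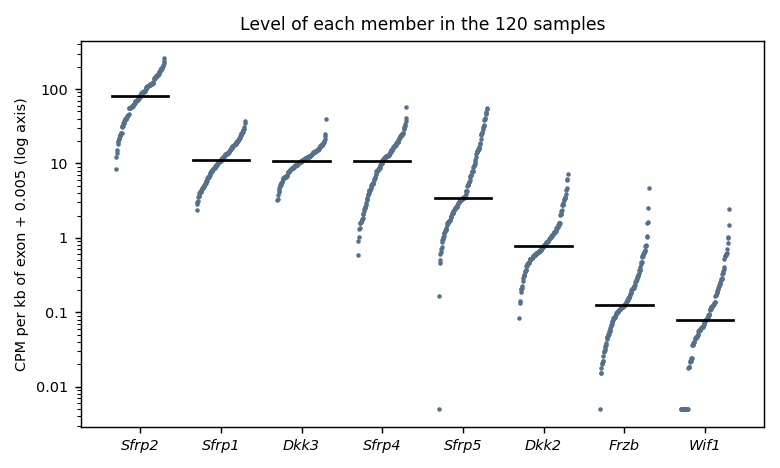
Level of each secreted Wnt antagonist, in CPM per kilobase of exon plus an offset of 0.005 on a log axis, with 1 point for each of 120 samples sorted from low to high and a black line at the median. *Sfrp2* stands above the others (median 81.8), and *Frzb* and *Wif1* lie lowest (0.120 and 0.0731).

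The change with age was tested in nonprogressors, which never became hyperglycemic, as the mean of 10 to 22 weeks against 6 weeks with the batch as a term. Of the 8 members, *Sfrp1*, *Sfrp2*, *Sfrp4*, *Dkk3* and *Wif1* fell and none rose (edgeR's quasi-likelihood test, adjusted p under 0.05 over all genes). Of 21138 genes tested, 24.1% passed in either direction and 14.2% were lower. The median log2 change was −0.95 over the 8 members and −0.03 over all genes tested. In NOR mice at the same ages no member passed, and 0.0357% of 19628 genes did. *Sfrp1* and *Frzb* had an unadjusted p under 0.05 there, DESeq2 also called no member, and *Wif1* was too low to be tested. Changes differed between the batches for several members, so within-batch values are given for each gene below. For nonprogressors those within batch 1 are the mean of 10 to 22 weeks against 6 weeks. Those within batch 2 are 14 against 6 weeks alone, so the 2 differ in ages as well as in batch. Without the 22-week samples, a choice made after seeing the data, *Sfrp2* still passed (adjusted p = 0.0465, edgeR) and the others missed the threshold, with adjusted p of 0.118 for *Sfrp1*, 0.153 for *Sfrp4*, 0.101 for *Dkk3* and 0.0709 for *Wif1*. When each of the 11 mice was left out in turn, likewise added after seeing the data, *Sfrp2* passed in 11 of 11 fits. Without mouse 1 the adjusted p was 0.0586 for *Sfrp1*, 0.143 for *Sfrp4*, 0.0514 for *Dkk3* and 0.351 for *Wif1*, all past the threshold with it. For 14 against 6 weeks alone, a contrast also added later, *Sfrp1*, *Sfrp2*, *Sfrp4*, *Dkk2* and *Dkk3* fell, where 29.8% of genes passed in either direction. Of these, *Sfrp2*, *Sfrp4*, *Dkk2* and *Dkk3* passed in 11 of 11 fits without a mouse, and *Sfrp1* in 7, with adjusted p from 0.0513 to 0.0767 without mouse 1, 2, 3 or 4.

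**Figure D2:**
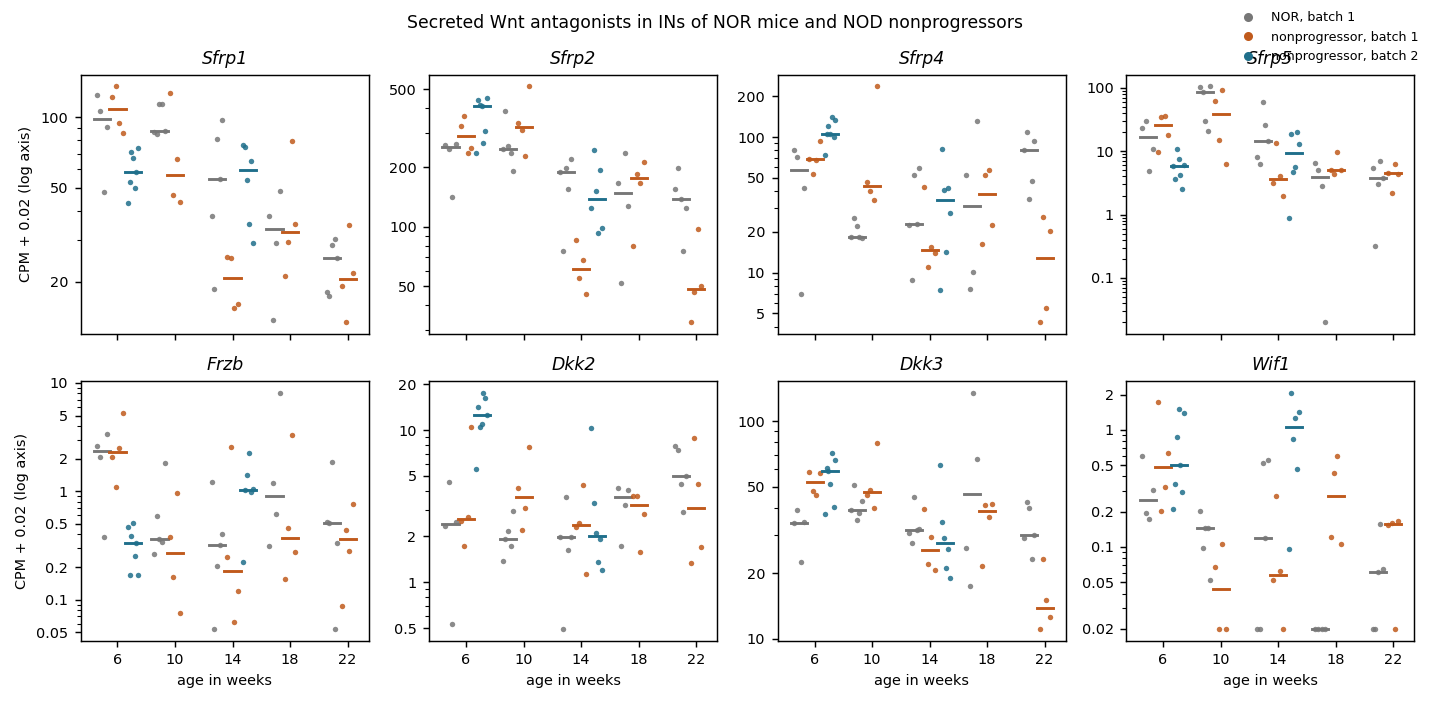
CPM of each member plus an offset of 0.02 (log axis) against age in weeks, with 1 point for each IN and a bar at the median of NOR mice (gray), nonprogressors of batch 1 (orange) and nonprogressors of batch 2 (blue). *Sfrp1* is lower at 22 weeks than at 6 weeks in both strains, and *Dkk2* of nonprogressors at 6 weeks is higher in batch 2 (5.49 to 17.5 CPM) than in 3 of 4 INs of batch 1.

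*Sfrp2*, which binds Wnt proteins and is a common fibroblast product, was the most abundant member and fell with age in nonprogressors. In batch 1 its CPM at 6 weeks was 238, 252, 324 and 365, and at 10 weeks 230, 309, 335 and 516. At 14 weeks it was 45.5, 55.0, 67.8 and 85.9, at 18 weeks 79.5, 168, 185 and 213, and at 22 weeks 32.8, 46.7, 50.2 and 97.0. All INs of 14, 18 and 22 weeks lay below all INs of 6 and 10 weeks. In batch 2 the CPM ran from 236 to 452 (median 412, n = 7) at 6 weeks and from 93.3 to 244 (median 138, n = 6) at 14 weeks, with a small overlap. The log2 change was −0.98 ± 0.20 (SE, adjusted p = 0.00103, edgeR), and it passed within batch 1 (−1.31 ± 0.24, adjusted p = 0.00324, where 13.8% of genes passed) and within batch 2 (−1.26 ± 0.24, adjusted p = 0.00177, where 34.1% passed). In NOR mice the CPM of *Sfrp2* was 142, 247, 261 and 262 at 6 weeks and 75.7, 124, 138, 155 and 198 at 22 weeks, and the change from 6 weeks of −0.40 ± 0.28 did not pass (adjusted p = 0.85, edgeR).

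In progressors *Sfrp2* was lower at the later times in both batches. Batch 1 INs had 251, 302, 348, 404 and 558 CPM at 6 weeks of age and 17.9, 29.8, 161, 206 and 319 at onset, where 2 of 5 mice were far below the others. Batch 2 INs had 147, 333, 359, 392 and 409 CPM at 6 weeks, a median of 295 over 8 INs at −7 (85.7 to 475), and 26.3, 39.0, 43.1, 55.2 and 95.3 at onset. All onset INs of batch 2 lay below all its 6-week INs. The range at −7 overlapped that of 6 weeks, and 1 of 8 INs at −7 (85.7 CPM) lay within the onset range. The mean of −5 to onset differed from 6 weeks by −1.53 ± 0.41 (SE) on the log2 scale in batch 1 and by −1.41 ± 0.30 in batch 2.

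*Dkk3*, the divergent Dickkopf member, followed a course in NOD mice close to that of *Sfrp2* in CPM. In nonprogressors of batch 1 its CPM was 45.5, 47.6, 57.8 and 58.1 at 6 weeks and 11.1, 12.5, 15.0 and 23.1 at 22 weeks, with no overlap. In batch 2 it ran from 37.5 to 71.1 (median 58.6) at 6 weeks and from 19.0 to 63.0 (median 27.4) at 14 weeks, where 1 IN was as high as at 6 weeks. The log2 change from 6 weeks was −0.78 ± 0.18 (SE, adjusted p = 0.00295, edgeR), with −0.81 ± 0.20 within batch 1 (adjusted p = 0.0148) and −0.79 ± 0.25 within batch 2 (adjusted p = 0.0256). In NOR mice *Dkk3* was 22.4, 33.8, 34.4 and 38.9 CPM at 6 weeks and 23.1, 28.9, 29.8, 39.6 and 42.4 at 22 weeks. These ranges overlapped, and the change of 0.33 ± 0.31 did not pass (adjusted p = 0.910, edgeR). In batch 2 progressors *Dkk3* was 48.4 to 60.0 CPM at 6 weeks and 17.1 to 22.1 at onset, and the mean of −5 to onset differed from 6 weeks by −0.96 ± 0.13 in batch 2 and by −0.89 ± 0.27 in batch 1.

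*Sfrp4*, a further Frizzled-related Wnt binder, fell with age in nonprogressors. In batch 1 its CPM was 53.3, 67.4, 69.5 and 93.3 at 6 weeks, 10.9, 14.0, 15.6 and 42.8 at 14 weeks and 4.29, 5.46, 20.2 and 25.8 at 22 weeks. At 10 weeks 1 IN had 237 CPM, far above the other 3 (34.1 to 46.8). In batch 2 it ran from 73.4 to 140 (median 106) at 6 weeks and from 7.46 to 81.4 (median 34.2) at 14 weeks. The log2 change of −1.16 ± 0.37 passed (adjusted p = 0.0230, edgeR), as it did within batch 2 (−1.64 ± 0.42, adjusted p = 0.00854) but not within batch 1 (−1.19 ± 0.49, adjusted p = 0.110). Besides mouse 1, leaving out mouse 3 took the call (adjusted p = 0.0524). NOR mice had 6.91, 42.4, 71.1 and 80.6 CPM at 6 weeks, 18.1, 18.3, 18.3, 22.1 and 25.4 at 10 weeks and 35.2, 47.2, 79.7, 94.3 and 109 at 22 weeks. The 22-week range lay above that of 10 weeks and overlapped that of 6 weeks, and the test for any difference between the 5 NOR ages did not pass for *Sfrp4* (adjusted p = 0.320, edgeR F test). In batch 2 progressors it was 32.8, 94.9, 127, 155 and 171 CPM at 6 weeks, 33.6 to 99.2 at −7 (median 58.4, n = 8) and 2.41, 3.78, 6.53, 6.58 and 22.4 at onset, which lay below both earlier groups. In batch 1 progressors onset values were split between 5.65 and 10.9 in 2 mice and 53.3, 72.9 and 86.2 in the other 3, against 73.9 to 104 at 6 weeks.

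Fibroblast markers moved with these 3 genes. In the nonprogressor comparison 8 of 8 fibroblast markers (*Pdgfra*, *Col1a1*, *Col1a2*, *Col3a1*, *Dcn*, *Lum*, *Dpt* and *Pi16*) fell, with a median log2 change of −0.96, and no marker was at 0 in all samples of any group. Their summed level in batch 2 nonprogressors was 39335 to 68938 CPM at 6 weeks and 12879 to 29042 at 14 weeks, and in batch 1 it was 33549 to 51042 at 6 weeks and 14183 to 41148 at 22 weeks. In batch 2 progressors the sum was 39131 to 68649 CPM at 6 weeks and 5916 to 17822 at onset. As a ratio to the sum, in thousandths, the *Dkk3* median there was 0.966 at 6 weeks and 1.68 at onset. That of *Sfrp2* was 6.15 and 4.45, that of *Sfrp4* 2.17 and 0.606, and the ranges overlapped for these 3 genes. The *Dkk2* ratio there was 0.186 to 0.590 at 6 weeks and 0.0419 to 0.129 at onset, with no overlap. In batch 1 progressors the *Dkk2* medians were 0.0924 at 6 weeks and 0.160 at onset, with overlapping ranges. In batch 1 nonprogressors the medians at 22 against 6 weeks were 0.676 against 1.23 for *Dkk3* and 2.30 against 6.72 for *Sfrp2*. They were 0.611 against 1.66 for *Sfrp4* and 0.100 against 0.0643 for *Dkk2*. Over all 120 samples, with each sample taken as its deviation from its group and batch, the log2 level of the sum had r = 0.768 with *Sfrp2*, 0.649 with *Dkk3*, 0.621 with *Dkk2* and 0.608 with *Sfrp4*. These points share library sizes and, within a mouse, an animal, and the part of the fibroblast markers in the results was not tested.

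**Figure D3:**
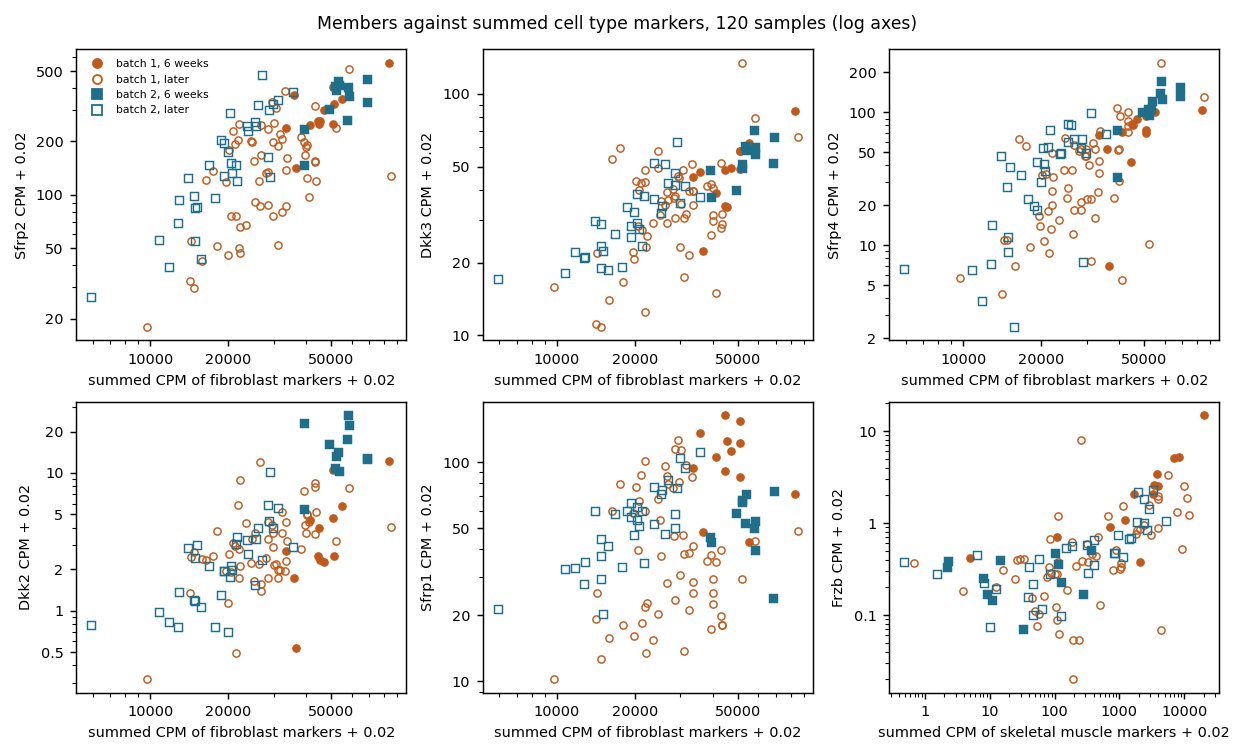
CPM of 5 members against the summed CPM of 8 fibroblast markers, and of *Frzb* against that of 5 skeletal muscle markers, on log axes with an offset of 0.02, in 120 INs (circles batch 1, squares batch 2, filled at 6 weeks of age, open later). *Sfrp2*, *Dkk3*, *Sfrp4* and *Dkk2* rise with the fibroblast sum, the 6-week INs of batch 2 sit highest for *Dkk2*, and high *Frzb* goes with high muscle markers.

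*Dkk2*, which binds the LRP co-receptors, differed between the batches at 6 weeks. In batch 2 its CPM was 12.8, 13.2, 22.2, 23.1 and 26.4 in progressors and ran from 5.49 to 17.5 (median 12.6, n = 7) in nonprogressors. In batch 1 it was 2.22, 3.94, 4.70, 5.78 and 12.1 in progressors, 1.71, 2.50, 2.68 and 10.4 in nonprogressors and 0.516, 2.33, 2.48 and 4.54 in NOR mice. Most 6-week INs of batch 1 thus lay below those of batch 2, and batch, cohort and sequencer cannot be told apart.

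From these different starts *Dkk2* took different courses. In batch 2 progressors it was 1.75 to 5.55 CPM at −7 (median 3.13, n = 8), 1.94, 2.57, 2.82, 3.40 and 3.95 at −5, and 0.747, 0.762, 0.809, 0.956 and 1.05 at onset. No −7 IN reached the 6-week range of batch 2, and no onset IN reached the −7 range. The −7 group and the 6-week group of batch 2 share 4 mice. In these (mice 6, 7, 9 and 10) *Dkk2* was 26.4, 23.1, 12.8 and 13.2 CPM at 6 weeks and 3.27, 2.99, 4.43 and 2.09 at −7, lower in 4 of 4. In mice 1 to 4, measured in batch 1 at 6 weeks and in batch 2 at −7, it was 4.70, 12.1, 3.94 and 5.78 and then 2.31, 5.55, 3.98 and 1.75, lower in 3 of 4 across batches. The log2 difference from 6 weeks in batch 2 was −2.57 ± 0.32 (SE) at −7, −2.74 ± 0.38 at −5, −3.78 ± 0.40 at −3, −2.77 ± 0.38 at −1 and −4.52 ± 0.42 at onset. Without mice 1 to 4 the −7 value was −2.62 ± 0.40. In batch 1 progressors the values at onset were 0.297, 2.64, 3.18, 5.19 and 8.49 CPM, which overlapped the 6-week range, and the differences from 6 weeks lay between −0.13 ± 0.56 at −5 and −0.99 ± 0.57 at −3. In nonprogressors *Dkk2* fell from 6 to 14 weeks within batch 2 (−1.92 ± 0.47, adjusted p = 0.00640, edgeR) and did not pass within batch 1 over 10 to 22 weeks (−0.36 ± 0.48, adjusted p = 0.643). Over both batches the change over 10 to 22 weeks missed the threshold (−0.84 ± 0.41, adjusted p = 0.14), but passed without mouse 5 (−1.17 ± 0.41, adjusted p = 0.0356), and that of 14 against 6 weeks passed (−1.51 ± 0.41, adjusted p = 0.00684). The difference between batches in the 14-week change was itself not past the threshold for *Dkk2* (−1.10 ± 0.81, adjusted p = 0.497). In NOR mice *Dkk2* at 22 weeks was 2.87, 4.38, 5.01, 7.40 and 7.87 CPM, and the test between the 5 ages gave an adjusted p of 0.0845 (edgeR F test).

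*Sfrp1*, a Wnt-binding antagonist of wide expression, was lower in older INs of batch 1 in each strain. In NOR mice its CPM was 47.8, 91.1, 106 and 125 at 6 weeks, 85.1, 86.4, 87.3, 113 and 114 at 10 weeks, and 18.5, 38.1, 54.4, 80.7 and 97.0 at 14 weeks. It was then 13.7, 29.2, 37.9 and 48.4 at 18 weeks and 17.4, 18.0, 25.2, 28.5 and 30.4 at 22 weeks, and no 22-week IN reached the 6-week or 10-week range. The 5 NOR ages differed for *Sfrp1* (adjusted p = 0.00267, edgeR F test), 1 of 2 members that passed among 7 tested, where 8.24% of 19628 genes passed. This test was added after the contrast with 6 weeks had been seen, in which *Sfrp1* had −1.03 ± 0.28 and an adjusted p of 0.307. Without the 18-week sample of mouse 5 the F test gave 0.00205, and leaving out each mouse in turn gave 0.0106 to 0.0465.

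In nonprogressors of batch 1 *Sfrp1* was 85.9, 94.3, 122 and 135 CPM at 6 weeks, 15.4, 16.1, 25.2 and 25.3 at 14 weeks and 13.4, 19.2, 21.8 and 34.9 at 22 weeks. In batch 2 it ran from 43.2 to 74.1 CPM (median 58.3) at 6 weeks and from 29.1 to 76.3 (median 59.6) at 14 weeks, with full overlap. The fall over both batches (−0.93 ± 0.27, adjusted p = 0.0126, edgeR) passed within batch 1 (−1.69 ± 0.28, adjusted p = 0.00195) and not within batch 2 (−0.10 ± 0.22, adjusted p = 0.746). It was lost without mouse 1 (−0.82, adjusted p = 0.0586) and without mouse 2 (−0.66, adjusted p = 0.127). The 14-week change differed between the batches by 2.33 ± 0.47 (adjusted p = 0.0217, edgeR, added after seeing the data). With each mouse left out the difference stayed between 2.15 and 2.47, and it passed in 5 of 11 fits, with adjusted p from 0.0505 to 0.0882 without mouse 1, 3, 4, 6, 9 or 10. *Sfrp1* was the only member past the threshold in that test, in which 1.94% of 21138 genes passed and *Sfrp5*, *Frzb*, *Wif1* and *Sfrp2* had an unadjusted p under 0.05. *Sfrp5*, *Frzb* and *Wif1* also passed without mouse 2 (adjusted p = 0.0168, 0.00208 and 0.0149) and without mouse 5 (0.0238, 0.0291 and 0.0373).

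The same split was visible in progressors. Batch 1 INs had 43.0, 71.7, 112, 153 and 164 CPM of *Sfrp1* at 6 weeks, 15.8, 20.3, 23.4, 37.2 and 39.9 at −3 and 10.2, 12.7, 19.8, 38.3 and 41.4 at onset. Batch 2 INs had 24.1, 39.6, 45.3, 53.7 and 65.6 at 6 weeks, 27.7, 46.7, 59.6, 71.1 and 111 at −3, and 21.5, 32.7, 32.9, 33.4 and 41.3 at onset. The mean of −5 to onset differed from 6 weeks by −1.76 ± 0.32 in batch 1 and by 0.15 ± 0.26 in batch 2 on the log2 scale. The 6-week level was thus higher in batch 1 for *Sfrp1* and higher in batch 2 for *Dkk2*.

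**Figure D4:**
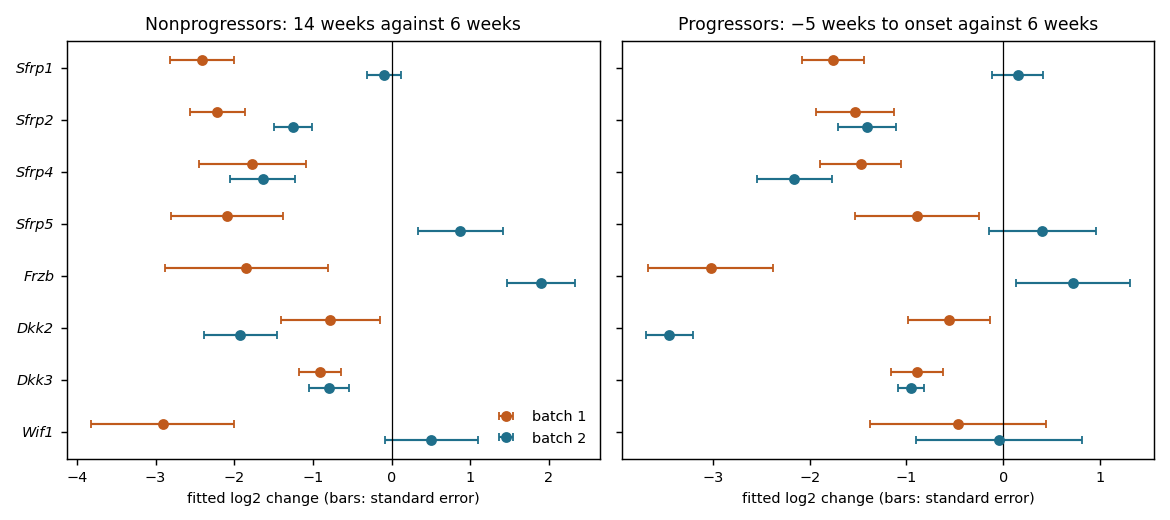
Fitted log2 change of each member within batch 1 (orange) and batch 2 (blue), with bars of 1 standard error, for nonprogressors at 14 against 6 weeks (left) and progressors at −5 weeks to onset against 6 weeks (right). *Sfrp2*, *Sfrp4* and *Dkk3* are below 0 in both batches, whereas *Sfrp1* and *Frzb* are below 0 in batch 1 and close to or above 0 in batch 2.

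*Sfrp5*, a Wnt-binding member known from adipose tissue, had a wide spread, and its medians in NOR mice and in nonprogressors of batch 1 were highest at 10 weeks. In NOR mice its CPM was 4.90, 10.7, 23.4 and 30.2 at 6 weeks, 21, 29.9, 86.6, 103 and 106 at 10 weeks, and 6.18, 8.10, 14.4, 25.6 and 59.0 at 14 weeks. It was 0, 2.86, 5.00 and 6.58 at 18 weeks and 0.303, 3.03, 3.77, 5.41 and 6.94 at 22 weeks, all below the 10-week range. The value of 0 belonged to the sample of mouse 5 with most of its counts on ribosomal RNA. The 5 NOR ages differed (adjusted p = 0.00213, edgeR F test), with 0.00285 without that sample and 0.00505 to 0.0473 when each mouse was left out. Since the peak lay at 10 weeks, the contrast of all later ages with 6 weeks was −0.43 ± 0.56 and did not pass (adjusted p = 0.943).

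In nonprogressors of batch 1 *Sfrp5* was 9.61, 18.1, 34.3 and 35.6 CPM at 6 weeks, 6.32, 14.9, 62.9 and 94.2 at 10 weeks and 2.20, 4.35, 4.53 and 6.38 at 22 weeks. The 5 nonprogressor ages differed for *Sfrp5* (adjusted p = 0.0126, edgeR F test with the batch term; 34.7% of 21138 genes passed), as they did for *Sfrp1*, *Sfrp2*, *Sfrp4* and *Dkk3*. The call of *Sfrp5* was lost without mouse 1 (0.0901) and without mouse 3 (0.0757), and that of *Sfrp1* without mouse 1 (0.0623) and without mouse 2 (0.0593). *Frzb* passed without mouse 3 (0.0212), and *Dkk2* without mouse 2 (0.0278), mouse 3 (0.0354) or mouse 5 (0.00978). In batch 2 *Sfrp5* was 2.55 to 10.8 CPM (median 5.82) at 6 weeks and 0.872 to 20.1 (median 9.36) at 14 weeks, and this change did not pass (0.87 ± 0.54, adjusted p = 0.223).

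In batch 2 progressors *Sfrp5* was 1.96, 2.97, 3.16, 5.84 and 6.55 CPM at 6 weeks and 6.51 to 60.1 (median 27.3, n = 8) at −7, so that 7 of 8 INs at −7 lay above all 6-week INs of that batch. In the 4 mice with both times in batch 2 (mice 6, 7, 9 and 10) it was 6.55, 3.16, 1.96 and 2.97 CPM at 6 weeks and 46.4, 6.51, 17.0 and 10.0 at −7. In mice 1 to 4 it was 14.9, 11.2, 27.4 and 6.76 CPM at 6 weeks in batch 1 and 27.5, 27.2, 60.1 and 29.0 at −7 in batch 2. The −7 IN was thus higher in each of the 8 mice, in 4 of them across batches. Age and time before onset cannot be told apart in these values. In batch 2 *Sfrp5* was then 1.22, 3.62, 13.5, 17.7 and 49.9 at −5, 2.34 to 8.08 at −3, and 0.940 to 6.53 at onset. The log2 difference from 6 weeks in batch 2 was 2.75 ± 0.68 (SE) at −7, or 2.27 ± 0.76 without mice 1 to 4, 2.07 ± 0.70 at −5, 0.28 ± 0.68 at −3 and −0.53 ± 0.69 at onset. In batch 1 progressors the 6-week INs held 6.76, 11.2, 14.9, 27.4 and 31.1 CPM and the −5 INs 1.35, 2.46, 9.47, 54.7 and 76.3. At −5, 2 of 5 INs lay above and 2 below the whole 6-week range, and the median was lower. Relative to −5, the mean of −3 to onset differed by −2.14 ± 0.41 over both batches. *Sfrp5* was chosen with that contrast in view, so the value is a description with no test.

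**Figure D5:**
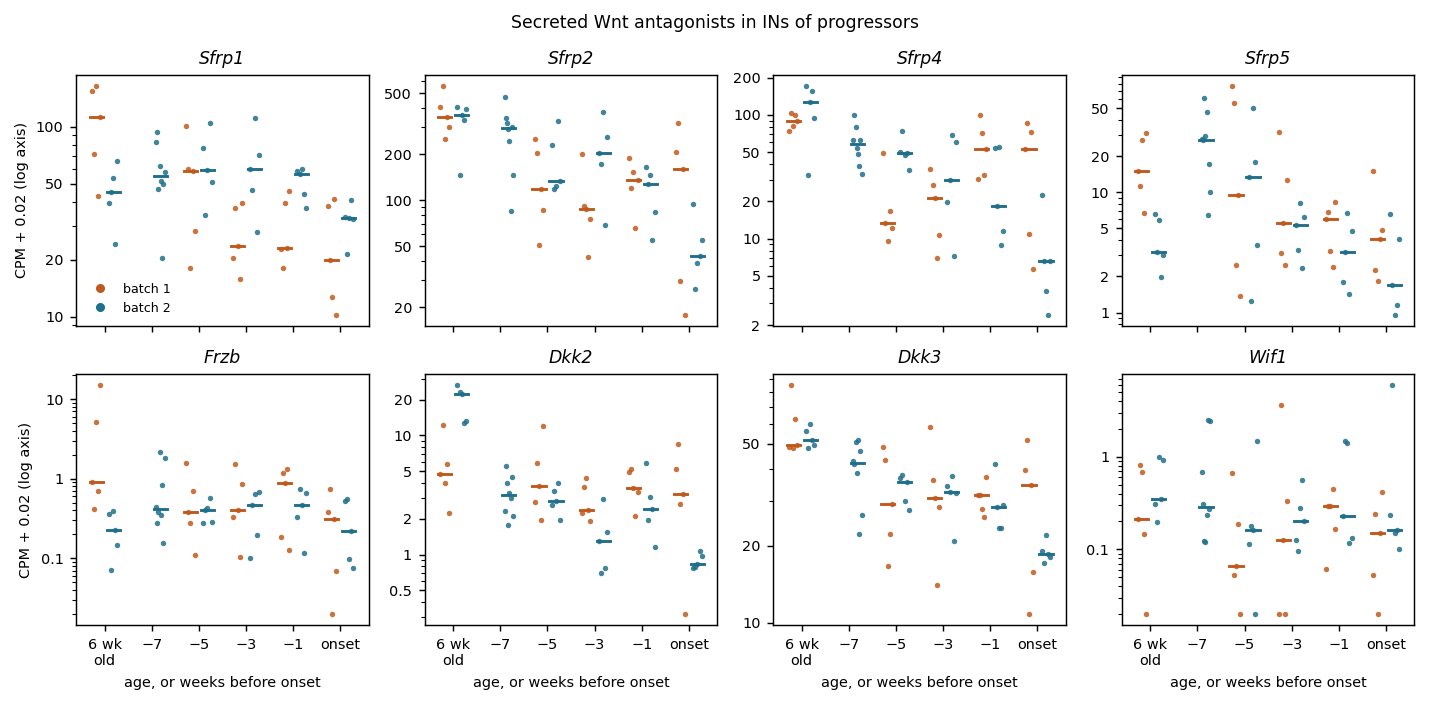
CPM of each member plus an offset of 0.02 (log axis) in INs of progressors at 6 weeks of age, at 7 to 1 weeks before onset and at onset, with 1 point for each IN and a bar at the median of batch 1 (orange) and batch 2 (blue, the only batch with −7). *Sfrp5* of batch 2 is highest at −7 (median 27.3 CPM), and *Dkk2* of batch 2 goes from 12.8 to 26.4 CPM at 6 weeks to 0.747 to 1.05 at onset.

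*Frzb*, a Wnt-binding protein first known from cartilage, was low and took opposite directions in the batches. In nonprogressors of batch 1 its CPM was 1.07, 2.04, 2.49 and 5.22 at 6 weeks and 0.0676, 0.263, 0.421 and 0.738 at 22 weeks, with no overlap. In batch 2 it ran from 0.148 to 0.492 (median 0.317) at 6 weeks and was 0.205, 0.971, 1.00, 1.02, 1.41 and 2.24 at 14 weeks, with 5 of 6 INs above the 6-week range. *Frzb* fell within batch 1 (−2.38 ± 0.73, adjusted p = 0.0386, edgeR) and rose within batch 2 (1.90 ± 0.43, adjusted p = 0.00447), while the value over both batches did not pass (−1.25 ± 0.58, adjusted p = 0.114). The difference between batches in the 14-week change was 3.76 ± 1.14 and missed the threshold (adjusted p = 0.0761). Without the 18-week sample of nonprogressor mouse 3, the library with the lowest total, also chosen after seeing the data, the value over both batches passed (−1.61 ± 0.55, adjusted p = 0.0330), as it did without all INs of that mouse (−1.77 ± 0.56, adjusted p = 0.0253).

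Skeletal muscle markers (*Acta1*, *Ckm*, *Myh4*, *Tnnt3* and *Mylpf*) moved with *Frzb*. Their summed level in nonprogressors was 1218 to 8382 CPM at 6 weeks in batch 1, 2.20 to 371 at 6 weeks in batch 2 and 8.31 to 5160 at 14 weeks in batch 2. None of the 5 was at 0 in every sample of a group, and none passed in the nonprogressor comparison. Within groups and batches the log2 sum had r = 0.695 with *Frzb* over 120 samples. The highest *Frzb* value, 15.0 CPM, was the 6-week IN of progressor mouse 5 in batch 1, which also had the highest muscle sum (20425 CPM). Without it the progressor difference of −5 to onset from 6 weeks over both batches changed from −1.83 ± 0.51 to −0.73 ± 0.47. Within batch 1, with that IN included, the differences from 6 weeks lay between −2.60 ± 0.99 at −1 and −3.81 ± 1.05 at onset. Within batch 2 those from −5 to onset lay between 0.32 ± 0.72 at onset and 0.998 ± 0.711 at −1. The part of muscle in these values was not tested.

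*Wif1*, which binds Wnt proteins and is known from hair follicle and cartilage, was the least abundant member. In nonprogressors of batch 1 it was 0.183, 0.304, 0.613 and 1.72 CPM at 6 weeks and 0, 0.135, 0.14 and 0.148 at 22 weeks. In batch 2 it ran from 0.190 to 1.5 (median 0.484) at 6 weeks and from 0.0769 to 2.05 (median 1.03) at 14 weeks. The fall over both batches (−1.73 ± 0.58, adjusted p = 0.0307, edgeR) passed within batch 1 (−2.83 ± 0.60, adjusted p = 0.00682), had the other sign within batch 2 (0.51 ± 0.59, adjusted p = 0.540) and missed the threshold with the mouse as a block (adjusted p = 0.0596). The call was also lost without mouse 1 (−0.97, adjusted p = 0.351) and without mouse 4 (−1.56, adjusted p = 0.0965). In progressors single INs stood out. The highest value of the series, 5.92 CPM, was an onset IN of batch 2 (mouse 7), against 0.0819 to 0.213 in the other 4. In that group the hair follicle markers (*Krt71*, *Krt25*, *Krt27*, *Lhx2* and *Shh*) summed to between 0.405 and 3460 CPM. Within groups and batches *Wif1* had r = 0.571 with that sum over 120 samples. Its r was similar with summed chondrocyte or bone markers (0.562; *Acan*, *Col2a1*, *Sox9*, *Ibsp* and *Bglap*). With summed keratinocyte markers (*Krt5*, *Krt14*, *Krt10*, *Krt1* and *Trp63*) it was 0.522. The part of these cell types in its values was not tested.

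NOD and NOR were compared within batch 1, with the INs of each mouse summed to 1 library. The NOD side held 5 progressor and 4 nonprogressor mice, and the NOR side 5 mice. Sums of progressors joined INs of 6 weeks and of −5 to onset, whose ages the labels do not give. Those of the other mice joined ages of 6 to 22 weeks. The strains thus differed in sampling times too, and the members were selected on values that include these progressor INs. No member passed (edgeR), where 8.98% of 23387 genes did, and 1 member had an unadjusted p under 0.05. This was *Dkk2*, with 0.52 ± 0.22 (adjusted p = 0.172). *Wif1* had 1.04 ± 0.49 (adjusted p = 0.220), *Sfrp5* −0.75 ± 0.42 (0.316) and *Sfrp1* −0.31 ± 0.15 (0.240), and the other 4 lay between −0.06 and 0.33. DESeq2 called no member either. For *Dkk3* the value was −0.01 ± 0.16 (adjusted p = 0.980, edgeR). An alternative fit used the 6-week INs alone, with 4 NOR INs. In it *Dkk3* was higher in NOD (0.78, adjusted p = 0.0289, edgeR). Its CPM was 45.5 to 84.8 in NOD INs and 22.4 to 38.9 in NOR INs of batch 1. The number of genes called in that fit is given below with the other alternatives. Their share of all genes tested is not given, so this call of *Dkk3* stands without that comparison.

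At 6 weeks, no member passed between progressors and nonprogressors (edgeR with the batch term). None of 19082 genes (0%) passed, DESeq2 called 0 genes, and 985 genes but no member had an unadjusted p under 0.05 in edgeR. *Dkk2* had 0.54 ± 0.30 (adjusted p = 0.891), and the other members lay between −0.61 and 0.18.

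The change from 6 weeks to 10 to 22 weeks was then compared between nonprogressors and NOR mice of batch 1. No member passed, and none of 20647 genes did (0% by edgeR, 9 genes by DESeq2, 1250 at an unadjusted p under 0.05). *Dkk3* (−1.12 ± 0.39, adjusted p = 0.741) and *Sfrp2* (−0.89 ± 0.40, adjusted p = 0.798) had an unadjusted p under 0.05. Beside these, and with no test, the change of progressors from 6 weeks to −5 to onset was set against that of nonprogressors, whose samples enter both comparisons. Progressors minus nonprogressors gave −0.66 ± 0.51 (SE) for *Dkk2*, −0.63 ± 0.80 for *Frzb*, −0.19 ± 0.55 for *Sfrp4* and −0.19 ± 0.42 for *Sfrp2*. This difference was −0.08 ± 0.38 for *Sfrp1*, −0.04 ± 0.24 for *Dkk3*, 0.19 ± 0.64 for *Sfrp5* and 1.78 ± 0.99 for *Wif1*.

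The other genes of the pathway were followed with a list of 72 ligands, receptors, co-receptors, agonists, further antagonists, transducers and target genes. In nonprogressors 60 were tested, 19 fell and 1 rose with age, with a median log2 change of −0.29. Of all genes tested 14.2% were lower and 24.1% passed in either direction. The ligand *Wnt9a* (−0.93 ± 0.19, adjusted p = 0.000672), the Wnt cargo receptor *Wls* (−0.47 ± 0.09, adjusted p = 0.000694) and the R-spondin receptor *Lgr4* (−0.63 ± 0.14, adjusted p = 0.00161) fell with the smallest p, and the ligand *Wnt5b* rose (0.89 ± 0.26, adjusted p = 0.0117, all edgeR). Between strains 5 of 64 passed, where 8.98% of all genes tested did. The transducer *Dvl2* (−0.33), the receptor *Ror1* (−0.43) and the agonist *Rspo3* (−0.80) were lower in NOD, and the target genes *Ccnd1* (0.42) and *Myc* (0.26) were higher. No gene of the list passed in NOR ageing (59 tested), at 6 weeks (56 tested) or in the comparison of changes between nonprogressors and NOR mice (60 tested).

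Likeness of pattern was measured as Pearson's r of batch-centred log2 CPM over 120 samples, which share library sizes and mice. The genes most like *Sfrp2* were *Lum* (r = 0.914), *Mmp2* (0.907) and *Itgbl1* (0.901), and those most like *Dkk3* were *Srpx2* (0.884), *Antxr1* (0.881) and *Thbs2* (0.878). For *Sfrp4* they were *Ly6c1* (0.93), *Dpt* (0.925) and *Cd34* (0.92), for *Sfrp1* *Col11a1* (0.865), *Slit2* (0.859) and *Pcdhgc5* (0.83), and for *Dkk2* *Ntn4* (0.812), *Prss23* (0.799) and *Snai2* (0.797). *Sfrp5* was closest to *Tspan10* (0.911), *Tspan7* (0.908) and *Card14* (0.904), *Frzb* to *Mlip* (0.812), *Kcnq5* (0.78) and *Itgb1bp2* (0.78), and *Wif1* to *Tenm2* (0.728), *Scube1* (0.712) and *Ptprf* (0.709). Among the members themselves *Sfrp2* was closest to *Dkk3* (0.805) and *Sfrp4* (0.753), and *Sfrp5* and *Dkk2* had an r of −0.0907.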

How the data were processed

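RNA from INs was sequenced by the authors, and 2 deposited tables (1 for each batch) hold estimated counts per Ensembl gene. The submitters' processing notes name cutadapt, FastQC, MultiQC, STAR, RSEM and GRCm38, and versions are not given in the sources used here. Estimated counts were rounded and the tables joined on the gene identifier. Groups, batches and mouse numbers came from the labels. CPM used TMM factors over 120 samples. Tests were edgeR 4.0.16 quasi-likelihood tests in R 4.3.3 (filterByExpr, TMM, Benjamini-Hochberg over all genes, threshold 0.05), checked on simulated data, and DESeq2 1.42.0 was an alternative. Time contrasts had a batch term, and the strain test used counts summed per mouse within batch 1.

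The members, lists and tests were chosen with earlier results of these data known. Named pathway genes were the 3 in each direction with the smallest adjusted p, and genes of like pattern the 3 with the highest r. Mouse numbers mark repeated INs of 1 animal. Deviations from group means over 2000 genes had a mean r within a mouse of 0.00635 in NOR, 0.0038 in nonprogressors and −0.00461 in progressors, against −0.0522, −0.0662 and −0.036 between mice. Depth is given with the samples, and low counts limit *Frzb* and *Wif1*. Alternatives were DESeq2, RLE scaling, no filter, each batch alone, no batch term, the mouse as a block and leaving out each mouse (for nonprogressors added after seeing the data). The 6 samples labelled by days post implant were kept out of the tests.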

Additional observations from a re-analysis of the deposited data

Results flagged for a closer look

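Of 184 groups of a member within a batch that were tested for a sample apart from the rest (Dixon's test on log2 of CPM + 0.5), 9 had one, and chance gives about 1 in 20 groups. *Sfrp1* was 20.3 CPM at −7 in progressor mouse 7 of batch 2, against 46.8 to 93.5 in the other 7. *Sfrp2* was 142 CPM at 6 weeks in NOR mouse 4 (others 247 to 262) and 147 at 6 weeks in progressor mouse 7 of batch 2 (others 333 to 409). *Sfrp4* was 237 CPM at 10 weeks in nonprogressor mouse 4, and *Dkk3* was 20.9 CPM at −3 in progressor mouse 9 of batch 2, where the group's highest value was 37.5.

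The other 4 were values of *Wif1*. Its CPM was 3.58 at −3 in progressor mouse 2 of batch 1, 1.46 at −5 in progressor mouse 10 of batch 2 and 5.92 at onset in progressor mouse 7 of batch 2. It was 0 at 22 weeks in nonprogressor mouse 3, where the others had 0.135 to 0.148. The highest sums of hair follicle markers in the groups of the first 3 were 2182, 491 and 3460 CPM. Whether these sums belong to the same INs is not given here, and their part was not tested.

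The change of *Sfrp1* from 6 to 14 weeks in nonprogressors differed between the batches by 2.33 on the log2 scale (adjusted p = 0.0217, edgeR), which passed in 5 of 11 fits without a mouse. Batch, cohort and sequencer cannot be told apart there.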

How the results depend on the processing

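Of 887 recomputed tested changes of members, 835 kept their side of the threshold, 37 of them with the other sign while neither value passed. Another 32 lost and 17 gained the call and 3 turned, namely *Dkk3* between strains with 6-week samples alone (0.78) and, in nonprogressors within batch 2, *Frzb* (1.90) and *Wif1* (0.51). Of 280 progressor values 242 stayed within 1 SE, and *Sfrp1* (0.15) and *Frzb* (0.72) turned within batch 2. The cause was not tested. Leaving out each mouse changed no member's call in the strain, NOR age and nonprogressor-minus-NOR comparisons, and the calls it changed in nonprogressors are given with each gene. With the mouse as a replicate block, genes called numbered 1398 for strain (main 2101), 2 for NOR age (7), 28 for −3 to onset against −5 (82), 883 for −7 against 6 weeks (2670) and 0 for later times against −7 (828). At 6 weeks the numbers name different animals (same-number r 0.0687 over 10 pairs) and that block gave 0. In the tested comparisons the block took no member's call but that of *Wif1*. DESeq2 called 46 genes for NOR age, 275 for −3 to onset against −5, and 11 and 9 for the differences of changes (0 by edgeR). Higher against lower calls were 906 and 1195 between strains (1536 and 1477 by DESeq2) and 2089 and 3005 for nonprogressor age (2865 and 2809 by DESeq2, 2502 and 2531 with RLE). Without the filter, NOR age gave 12 and −3 to onset 45. Batch 1 alone gave 2712 for nonprogressor age (5094), 1117 at 14 weeks (6293) and 5317 for later progressor times (8403). Batch 2 alone gave 2 for −3 to onset, 4077 for −7 and 1352 against −7. Without a batch term the counts were 9173 for nonprogressor age, 14 for −3 to onset and 2157 against −7. Strain with 6-week samples alone gave 403. Leaving out each nonprogressor mouse gave 2786 (without mouse 1) to 5367 for nonprogressor age and 0 (without mouse 3 or 6) to 2528 (without mouse 2) for the difference between batches (411). Without progressor mice 1 to 4, batch 2 alone gave 7 for later times against −7. Leaving out each NOR mouse gave 0 to 54 for NOR age and 481 to 1488 for any difference between NOR ages (1617), and without the 18-week sample of mouse 5 these were 12 and 2601.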

Other observations

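Another 6 nonprogressor samples of batch 1 are labelled by days post implant (31, 38 and 108, with 2 each) and not by age. *Sfrp5* was 39.9 and 47.5 CPM at 31 days, 76.9 and 90.9 at 38 days and 48.1 and 73.3 at 108 days, above the 6-week nonprogressor INs of that batch (9.61 to 35.6 CPM) in all 6. *Sfrp2* ran from 120 to 199 CPM in the 6 samples, below those INs (238 to 365). *Sfrp1* ran from 60.1 to 96.3 CPM, *Sfrp4* from 34.0 to 64.0, *Dkk3* from 34.7 to 59.5 and *Dkk2* from 2.16 to 3.30. *Frzb* ran from 0.164 to 1.94 CPM and *Wif1* from 0.139 to 0.692. Their labels number the mice 1 and 2 at each time but give no age, and they were not tested.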
